A study of Mus musculus with 18 samples.

Results

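Matrix metalloproteinases (Mmp genes), ADAMTS proteases (Adamts genes) and the tissue inhibitors of metalloproteinases (Timp genes) were followed across 6 groups of mouse embryonic fibroblasts. They were taken as all genes whose symbol is Mmp, Adamts or Timp followed by its number, which gave 46 of the 51499 loci of the deposited table: 23 Mmp, 19 Adamts and 4 Timp genes. RNA of fibroblasts labelled Ago2+/+ or Ago2-/-, the latter lacking the Argonaute protein that carries out slicing in RNA interference, was sequenced under the solvent DMSO, under tunicamycin or under thapsigargin at 500 nM. Both compounds stress the endoplasmic reticulum (ER), tunicamycin by blocking N-linked glycosylation and thapsigargin by emptying the ER of calcium. Each of the 6 groups held 3 of the 18 libraries. The table gives 1 FPKM (fragments scaled for transcript length and sequencing depth) per gene and group, pooled by the authors over the group's libraries. Whether the 3 libraries came from separate cultures was not found in the labels. No value has a replicate spread, no test between groups was made, and every difference is given as a description of pooled values.

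Metalloproteinases of both families are made as inactive proenzymes in the secretory pathway and cut the proteins of the extracellular matrix once they are outside the cell or on its surface. Mmp genes encode collagenases, gelatinases, stromelysins and membrane-bound enzymes, and ADAMTS enzymes trim procollagens and cleave large proteoglycans such as versican and aggrecan. The TIMP proteins bind the active site of these enzymes, and the ratio of enzyme to inhibitor sets how much matrix is degraded. Fibroblasts are a main source of these proteins in connective tissue.

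The labels did not match the values in several respects. Genotype labels conflict with each other for 4 libraries, which were kept under their titles. In the order DMSO, tunicamycin and thapsigargin, Ago2 itself was at 22.1, 5.75 and 17.0 FPKM with the label Ago2+/+, and at 5.61, 15.5 and 20.7 FPKM with the label Ago2-/-. Genes of the Y chromosome (Uty, Kdm5d, Ddx3y, Eif2s3y) were between 6.03 and 32.3 FPKM in the groups labelled Ago2+/+ thapsigargin and Ago2-/- tunicamycin and were listed at 0 in the other 4. Xist, the RNA of the inactive X chromosome, was at 46.6 FPKM in Ago2+/+ DMSO, at 33.5 in Ago2-/- thapsigargin and at 0.0574 or less elsewhere. Groups that share a genotype label thus differ in sex-linked RNA that the labels do not record, and the labelled treatment cannot be told apart from the identity of the cells that received it. Of 8 fibroblast markers 7 reached 1 FPKM in a group, while Thy1 was listed at 0 in all 6 groups. Their sum, between 1596 and 2975 FPKM, was carried by Vim (952 to 2634 FPKM), and other markers differed more between groups, Pdgfrb from 0.540 to 17.9 FPKM and Pdgfra from 0.488 to 8.72 FPKM. Of the 5 leukocyte markers only Cd68 (1.13 to 1.82 FPKM) and of the 3 muscle markers only Des (0.25 to 2.95 FPKM) reached 1 FPKM, and none of the epithelial, endothelial or chondrocyte and osteoblast markers did.

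Not all of the family was transcribed at a readable level. A level of 1 FPKM was reached in at least 1 group by 23 of these 46 genes (11 Mmp, 9 Adamts and 3 Timp genes), and in all 6 groups by 8. Of the remaining 23, Adamts8 and Adamts19 were listed at 0 in every group, and the other 21 stayed between 0.00482 FPKM (Adamts13, which cleaves von Willebrand factor) and 0.961 FPKM (the gelatinase Mmp9, in Ago2-/- tunicamycin) at their highest. These 21 included the collagenases Mmp1a and Mmp1b, the stromelysin Mmp10, the matrilysin Mmp7, Mmp12, Mmp15, Mmp17, Mmp20, Mmp21, Mmp24, Mmp25, Timp4, and Adamts3, Adamts9, Adamts15, Adamts16, Adamts17, Adamts18 and Adamts20. The number of genes at 1 FPKM or more was 10, 13 and 18 with the label Ago2+/+ and 12, 18 and 12 with the label Ago2-/-, in the order DMSO, tunicamycin and thapsigargin. In bulk RNA, a transcript lost from some cells and a lower level in every cell cannot be told apart. Over all loci the share at 1 FPKM or more was nearly constant, from 22.3% to 22.6%.

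**Figure D1:**
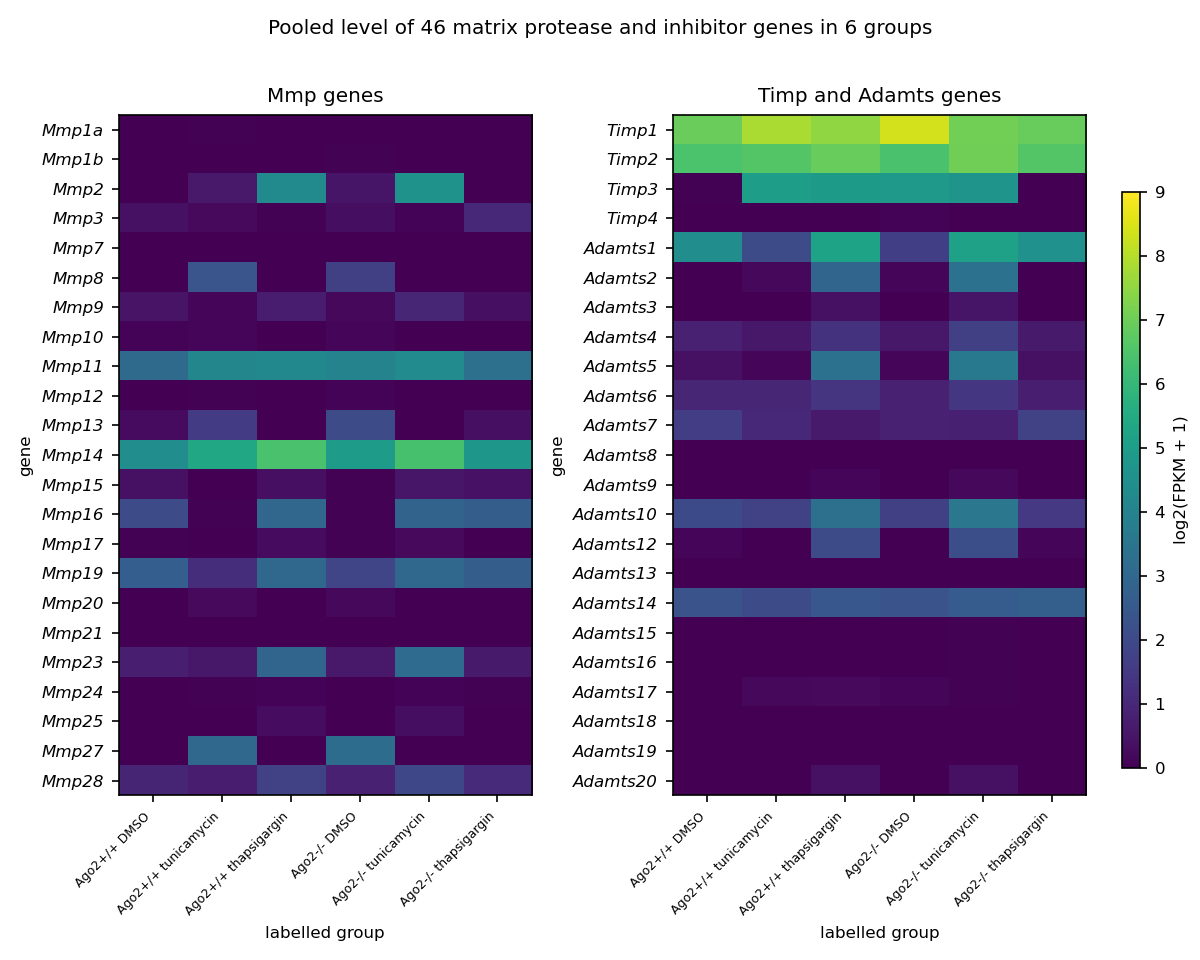
Pooled level of the 46 genes (rows) in the 6 labelled groups (columns), as log2(FPKM + 1) by colour. Timp1 and Timp2 are the brightest rows in every group, and several rows (Mmp2, Adamts2, Adamts5, Adamts12) are brightest in Ago2+/+ thapsigargin and Ago2-/- tunicamycin.

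The inhibitors were the most abundant transcripts of the set. Timp1, which inhibits most secreted Mmps, was at 122, 229 and 181 FPKM in Ago2+/+ under DMSO, tunicamycin and thapsigargin, and at 336, 134 and 120 FPKM in Ago2-/-. Its lowest and highest groups, Ago2-/- thapsigargin and Ago2-/- DMSO, were 2.80-fold apart. Timp2, which both inhibits Mmp2 and takes part in its activation on the cell surface, was at 85.7, 96.2 and 118 FPKM in Ago2+/+ and at 85.0, 131 and 95.1 FPKM in Ago2-/-, in the same order. It had the narrowest range of all 23 genes, 1.54-fold. Timp3, the inhibitor that binds to the matrix and also blocks ADAMTS aggrecanases, was either present or nearly absent. It was at 0.0261 FPKM in Ago2+/+ DMSO and 0.0186 in Ago2-/- thapsigargin, and in the other 4 groups between 24.5 FPKM (Ago2-/- tunicamycin) and 31.1 FPKM (Ago2+/+ tunicamycin). The 2 groups with almost no Timp3 are those with Xist above 30 FPKM, and its range, 1668-fold, was the widest among genes with no group at 0.

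The abundant Timp genes overlap other genes, and the sources used here do not say whether the libraries keep strand. Timp1 lies inside the synapsin gene Syn1 on the other strand, which was between 0.288 and 1.20 FPKM, and Timp3 likewise inside Syn3, which was between 0.0109 and 0.105 FPKM, so little signal was assigned to either host gene. Timp2 overlaps Cep295nl, which was between 0.553 and 1.53 FPKM.

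Among the proteases, membrane-bound Mmp14, a collagenase of the cell surface that activates pro-Mmp2, led in every group. It was at 20.5, 39.7 and 83.7 FPKM in Ago2+/+ under DMSO, tunicamycin and thapsigargin and at 30.8, 81.4 and 26.4 FPKM in Ago2-/-. Mmp14 made up between 47.4% and 58.0% of the summed Mmp level of a group. The gelatinase Mmp2, which cuts denatured collagen and basement membrane collagen, was at 0.0223, 0.523 and 18.9 FPKM in Ago2+/+ and at 0.420, 23.5 and 0.0173 FPKM in Ago2-/-. Mmp2 was thus above 1 FPKM in the 2 groups in which Mmp14 was also highest, and below 0.6 FPKM in the other 4. Mmp16, a relative of Mmp14 in the class of membrane-bound enzymes, had its own pattern. It was at 3.26, 0.0293 and 6.91 FPKM in Ago2+/+ and at 0.0255, 6.22 and 5.26 FPKM in Ago2-/-, with Ago2+/+ tunicamycin and Ago2-/- DMSO as the 2 low groups.

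Summed over the family, the Mmp genes were at 39.8, 73.5 and 144 FPKM in Ago2+/+ and at 65.1, 150 and 49.6 FPKM in Ago2-/-. The sum of the Timp genes was 207, 357 and 329 FPKM in Ago2+/+ and 448, 290 and 215 FPKM in Ago2-/-, in the same order of treatments. Timp transcripts therefore exceeded Mmp transcripts in all 6 groups. Their ratio was 5.20, 4.85 and 2.28 in Ago2+/+ and 6.89, 1.93 and 4.33 in Ago2-/-, lowest in the 2 groups with the highest Mmp14 and Mmp2. These are sums of transcript levels, and protein and enzyme activity were not measured.

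**Figure D2:**
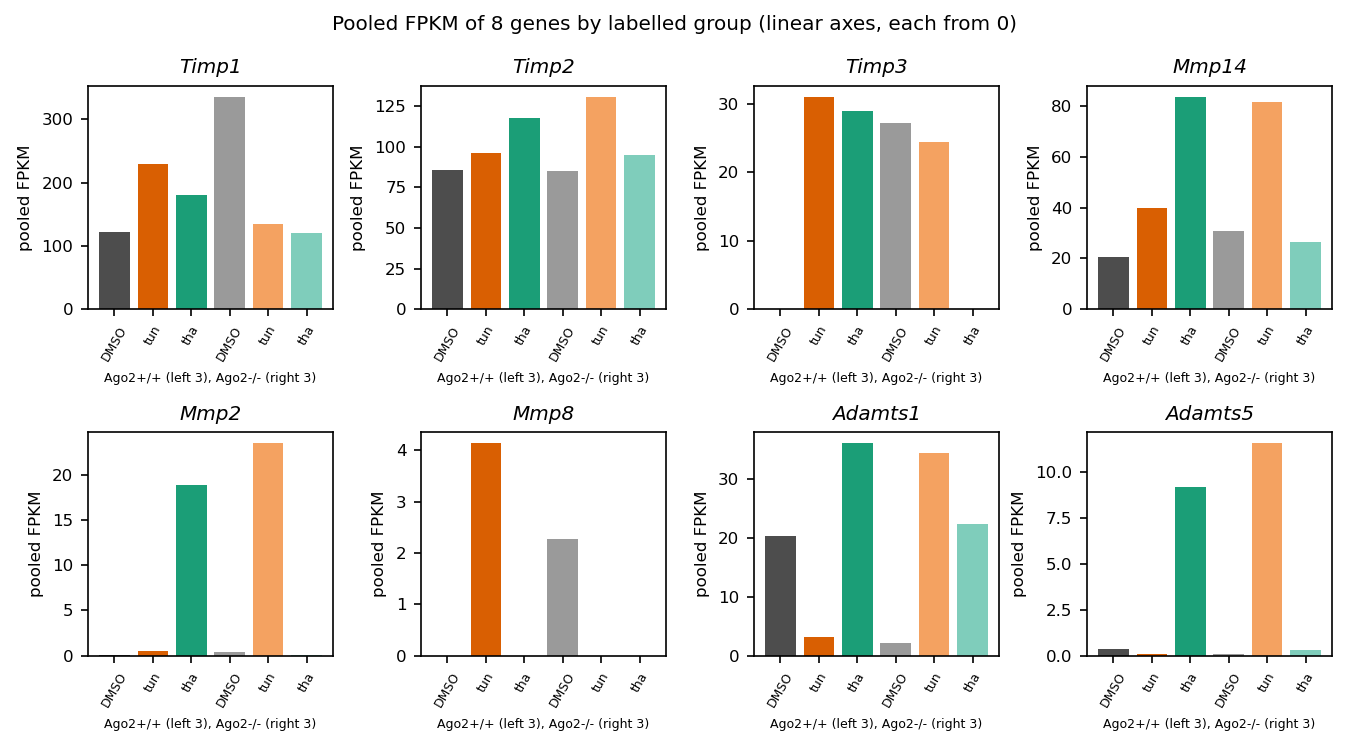
Pooled FPKM (vertical, linear, each axis from 0) of 8 genes in the 6 labelled groups; tun is tunicamycin, tha is thapsigargin, the left 3 bars are Ago2+/+ and the right 3 Ago2-/-, and bars have no error because each is 1 pooled value. Timp2 stays between 85.0 and 131 FPKM, while Timp3 is below 0.03 FPKM in Ago2+/+ DMSO and Ago2-/- thapsigargin and Mmp8 is above 0 in Ago2+/+ tunicamycin and Ago2-/- DMSO only.

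The remaining Mmp genes divided by group. Mmp11, a stromelysin that is activated by furin inside the secretory pathway, was at 7.55, 16.6 and 17.2 FPKM in Ago2+/+ and at 15.4, 19.2 and 8.91 FPKM in Ago2-/-. Mmp19, a protease of basement membrane components, was at 5.52, 1.28 and 7.16 FPKM in Ago2+/+ and at 2.70, 7.11 and 5.33 FPKM in Ago2-/-. Mmp23, a membrane-anchored enzyme released by cleavage, was at 0.692, 0.490 and 6.62 FPKM in Ago2+/+ and at 0.533, 7.95 and 0.559 FPKM in Ago2-/-, so that 2 groups exceeded the other 4. Mmp28, also named epilysin, was lowest at 0.617 FPKM (Ago2+/+ tunicamycin) and highest at 2.85 FPKM (Ago2-/- tunicamycin). The stromelysin Mmp3 reached 1 FPKM in 1 group only, Ago2-/- thapsigargin (1.05 FPKM), against 0.0454 to 0.330 FPKM elsewhere. Mmp19 overlaps Tmem198b on the other strand, which was between 7.46 and 11.3 FPKM, and a split of signal between the pair was not tested.

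The ADAMTS proteases that process procollagen and proteoglycans were mostly high in 2 groups. Adamts1, a versican-cleaving enzyme that reached the highest level of the family, was at 20.2, 3.18 and 36.0 FPKM in Ago2+/+ and at 2.15, 34.4 and 22.3 FPKM in Ago2-/-. Adamts14 exceeded it in Ago2+/+ tunicamycin (3.21 FPKM) and in Ago2-/- DMSO (3.89 FPKM), as did Adamts10 in the latter (2.28 FPKM). Adamts1 was low in the same groups as Mmp16. Adamts5, the main aggrecanase of mouse cartilage, was at 0.337, 0.108 and 9.22 FPKM in Ago2+/+ and at 0.0892, 11.6 and 0.308 FPKM in Ago2-/-. The genes of Adamts1 (chromosome 16, 85793827 to 85803113, minus strand, GRCm38) and Adamts5 (85856173 to 85901828, minus strand) are only 53.1 kb apart, yet in Ago2+/+ DMSO and Ago2-/- thapsigargin Adamts1 was above 20 FPKM while Adamts5 stayed below 0.4 FPKM. Adamts4, the other aggrecanase, was between 0.490 and 2.24 FPKM.

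Adamts2, which removes the amino-terminal propeptide of procollagen I, was at 0.0121, 0.133 and 6.74 FPKM in Ago2+/+ and at 0.111, 9.21 and 0.0129 FPKM in Ago2-/-. Its relative Adamts14 was instead even across groups, between 3.21 FPKM (Ago2+/+ tunicamycin) and 5.61 FPKM (Ago2-/- thapsigargin), a range of 1.75-fold. Col1a1, a chain of the shared substrate, was at 112, 6.77 and 521 FPKM in Ago2+/+ and at 5.97, 651 and 87.1 FPKM in Ago2-/-, highest in the 2 groups that were high in Adamts2. Adamts10, linked to fibrillin microfibrils, was at 3.02, 2.42 and 8.93 FPKM in Ago2+/+ and at 2.28, 11.0 and 1.81 FPKM in Ago2-/-, and its relative Adamts6 stayed between 0.703 and 1.66 FPKM. Adamts12, which cleaves cartilage oligomeric matrix protein, was at 3.29 FPKM in Ago2+/+ thapsigargin and 3.48 in Ago2-/- tunicamycin and at 0.108 or less in the others. Adamts7, with the same substrate, had another order, being highest in Ago2-/- thapsigargin (2.37 FPKM) and Ago2+/+ DMSO (2.09 FPKM) and lowest in Ago2+/+ thapsigargin (0.585 FPKM).

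Tunicamycin was compared with DMSO within each genotype label, between groups that also differ in Xist (Ago2+/+) or in Y-linked RNA (Ago2-/-). A gene was counted as higher or lower when log2(FPKM + 1) differed by 1 or more, a 2-fold difference after adding 1 FPKM, among genes with at least 1 FPKM in either group. This scale understates differences of low genes. In the groups labelled Ago2+/+, 5 of 14 genes were higher under tunicamycin (Mmp8, Mmp11, Mmp13, Mmp27 and Timp3), where 8.44% of all 12257 loci were, and 3 were lower (Adamts1, Mmp16 and Mmp19), where 7.02% of loci were. In the groups labelled Ago2-/-, 12 of 21 genes were higher (background 10.8%) and 4 were lower, namely Mmp8, Mmp13, Mmp27 and Timp1 (background 8.95%). The 12 were Adamts1, Adamts2, Adamts4, Adamts5, Adamts10, Adamts12, Mmp2, Mmp14, Mmp16, Mmp19, Mmp23 and Mmp28. The median difference on the log2(FPKM + 1) scale was 0.54 for the genes and 0.011 for all loci in Ago2+/+, and 1.13 and 0.005 in Ago2-/-.

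Genes with opposite differences in the 2 labelled genotypes included Adamts1, which was 6.34-fold lower under tunicamycin in Ago2+/+ and 16.0-fold higher in Ago2-/-, as ratios of FPKM. Mmp19 was 4.30-fold lower in the first and 2.63-fold higher in the second. Mmp13, Mmp8 and Mmp27 did the reverse, being higher in Ago2+/+ and lower in Ago2-/-. Each comparison takes its own DMSO group, and for Adamts1 those groups were themselves at 20.2 and 2.15 FPKM. Ago2+/+ tunicamycin and Ago2-/- DMSO, alike in these genes and over all loci as given below, are the treated group in one comparison and the DMSO group in the other. A gene particular to both therefore takes opposite signs.

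The comparison of thapsigargin with DMSO was likewise made between groups that also differ in Xist (both genotype labels) and in Y-linked RNA (Ago2+/+). In the groups labelled Ago2+/+, 9 of 19 genes were higher (Adamts2, Adamts5, Adamts10, Adamts12, Mmp2, Mmp11, Mmp14, Mmp23 and Timp3; background 8.27%) and 0 were lower (background 6.14%). With a pseudocount of 0.1 FPKM, 11 were higher and 1, Adamts7, was lower, where 19.1% of loci were apart. Mmp2 had the widest ratio after Timp3, 848-fold, and Mmp14 was 4.09-fold higher. In the groups labelled Ago2-/-, 2 of 16 genes were higher, Adamts1 (10.4-fold) and Mmp16 (206-fold), against a background of 7.19%, and 5 were lower, Mmp8, Mmp13, Mmp27, Timp1 and Timp3, against 8.64%. Median differences were 0.89 for the genes and 0.012 for all loci in Ago2+/+, and -0.03 and -0.021 in Ago2-/-. Timp3 was 1112-fold higher under thapsigargin in the first genotype label and 1466-fold lower in the second. The groups with almost no Timp3 are the DMSO group of the first label and the thapsigargin group of the second. The lower values behind these ratios of Mmp2, Mmp16 and Timp3 lie between 0.0186 and 0.0261 FPKM. The sizes and the order of such ratios are therefore imprecise.

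The labelled genotypes were contrasted at each treatment. The groups also differ in Xist under DMSO and thapsigargin, and in Y-linked RNA under tunicamycin and thapsigargin. Ago2 itself was lower with the label Ago2-/- under DMSO only (5.61 against 22.1 FPKM). It was higher with that label under tunicamycin (15.5 against 5.75 FPKM) and thapsigargin (20.7 against 17.0 FPKM). Under DMSO, 5 of 14 genes were higher in Ago2-/- (Mmp8, Mmp13, Mmp27, Timp1 and Timp3; background 8.66%) and 2 lower (Adamts1 and Mmp16; background 7.11%). Under tunicamycin, 12 of 22 were higher, the 12 genes named above for the comparison with DMSO (background 10.6%), and 3 lower, Mmp8, Mmp13 and Mmp27 (background 8.53%). Under thapsigargin, 1 of 20 was higher, Adamts7 (4.05-fold; background 6.32%), and 8 lower, Adamts2, Adamts5, Adamts10, Adamts12, Mmp2, Mmp14, Mmp23 and Timp3 (background 8.95%). Median differences of the genes were 0.29, 1.07 and -0.68, and those of all loci 0.010, -0.005 and -0.028. None of the 23 genes at 1 FPKM or more was 2-fold apart in the same direction at all 3 treatments, as were 0.0307% of the 13032 such loci, so this 0 says nothing particular to these genes. Comparisons that share a group (each DMSO group enters 3 of them) are not independent of each other.

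**Figure D3:**
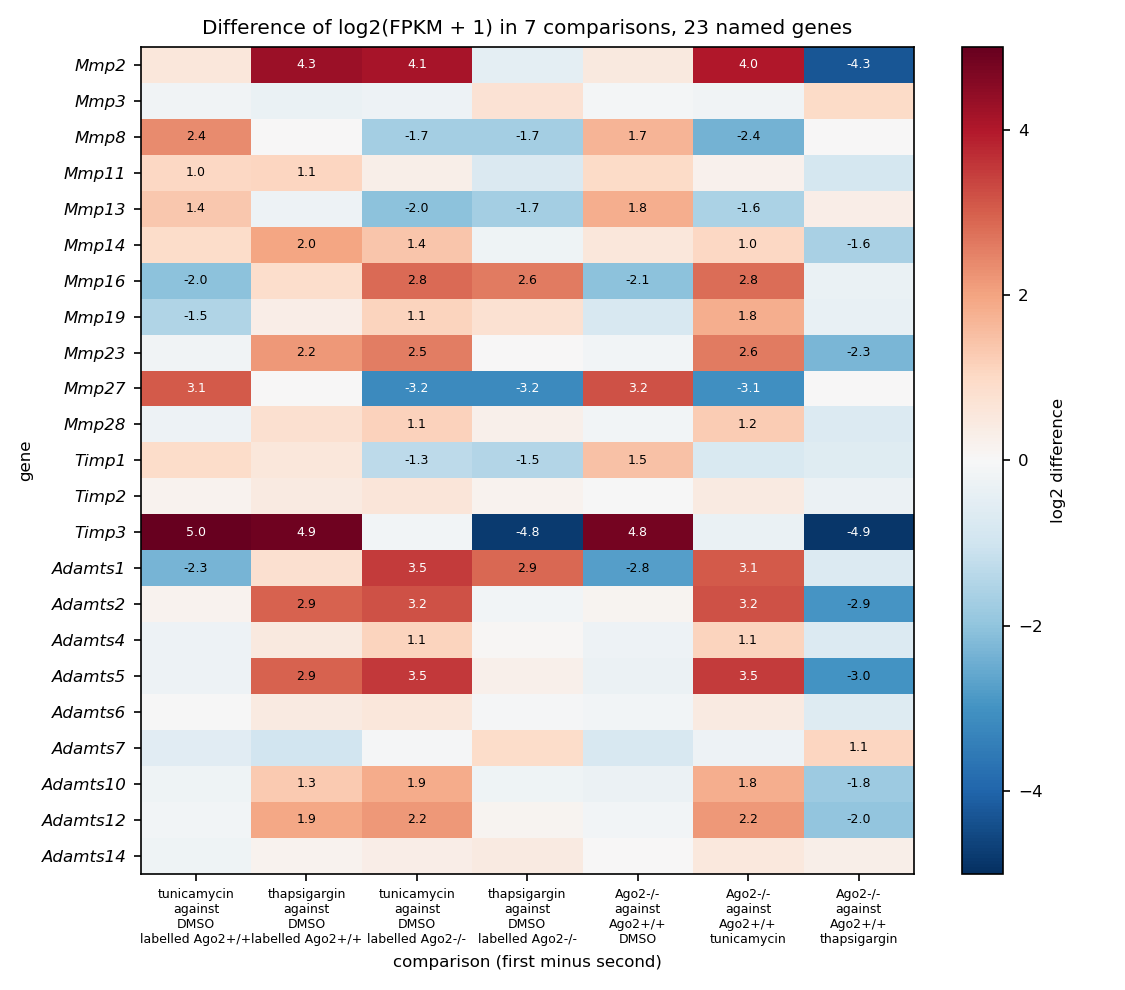
Difference of log2(FPKM + 1) (colour, and printed where its size is 1 or more) for the 23 genes with at least 1 FPKM in a group (rows) in the 4 stressor and 3 genotype comparisons (columns). Mmp8, Mmp13 and Mmp27 change together, and Timp3 holds the largest values, from -4.88 to 4.97.

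The other 8 pairs of groups were set beside these to see which groups were alike. In 3 of them none of the 12, 13 and 18 genes at 1 FPKM in either group was 2-fold apart on this scale: Ago2-/- thapsigargin against Ago2+/+ DMSO (background 2.35%), Ago2-/- DMSO against Ago2+/+ tunicamycin (background 1.36%) and Ago2-/- tunicamycin against Ago2+/+ thapsigargin (background 1.40%). Each 0 is near the share of all loci and says nothing particular to these genes. The gene furthest apart in these 3 pairs was Mmp3 (log2 difference 0.62), Mmp19 (0.70) and Timp1 (-0.43). The call depends on the pseudocount, since with 0.1 FPKM in place of 1, chosen after seeing the data, Mmp3 (1.05 and 0.330 FPKM) and Mmp19 (2.70 and 1.28 FPKM) were 2-fold apart in the first and second of these pairs. In the other 5, between 7 and 14 genes were apart. These were 9 of 19 for Ago2-/- tunicamycin against Ago2+/+ DMSO (background 15.0%) and 14 of 22 for Ago2+/+ thapsigargin against Ago2+/+ tunicamycin (17.5%). For Ago2-/- thapsigargin against Ago2+/+ tunicamycin they were 7 of 16 (15.7%), and for Ago2-/- DMSO against Ago2+/+ thapsigargin 13 of 21 (18.0%). The last pair, Ago2-/- thapsigargin against Ago2-/- tunicamycin, had 10 of 20 (16.2%). Each of the 3 alike pairs joins different labels of genotype and of treatment, and each pair is also alike in Xist and in the Y-linked genes. Ago2 itself was at 20.7 and 22.1 FPKM in the first pair, 5.61 and 5.75 in the second and 15.5 and 17.0 in the third.

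**Figure D4:**
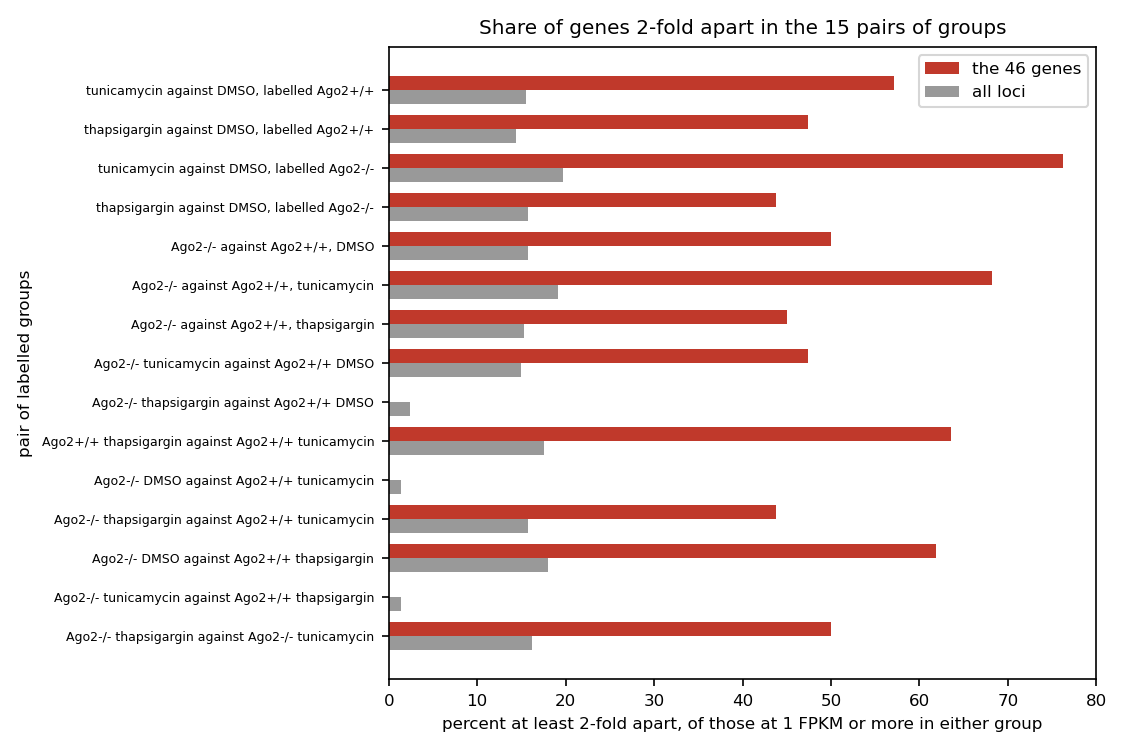
Percent of genes at least 2-fold apart on log2(FPKM + 1) (horizontal) in the 15 pairs of labelled groups (vertical), of those with 1 FPKM or more in either group, for the 46 genes (red) and for all loci (grey). In 3 pairs the red bar is at 0 and the grey bar between 1.36% and 2.35%.

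A cluster of Mmp genes on chromosome 9 was transcribed mainly in 2 of the groups. The cluster spans 427 kb (chromosome 9, 7272514 to 7699585, GRCm38) and holds 10 of the 23 Mmp genes, in the order Mmp13, Mmp12, Mmp1b, Mmp3, Mmp1a, Mmp10, Mmp8, Mmp27, Mmp20 and Mmp7. The collagenase Mmp8, best known from neutrophils, was at 4.14 FPKM in Ago2+/+ tunicamycin and 2.27 in Ago2-/- DMSO and was listed at 0 in the other 4 groups. Mmp27, an Mmp that is largely kept in the ER, was at 7.33 and 8.08 FPKM in these 2 groups and likewise listed at 0 in the rest. The collagenase Mmp13 was at 2.06 and 3.15 FPKM there, and at 0.280 or less elsewhere. Mmp20, the enamel protease, followed at 0.179 and 0.157 FPKM with the other groups at 0. Mmp3, between them, did not, with 0.183 and 0.251 FPKM in these groups against 0.330 in Ago2+/+ DMSO. Mmp12 and Mmp1b overlap each other, and Mmp1a and Mmp1b are near copies, so their low values (0.0608 FPKM or less) may be split between genes.

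AP-1, the dimer of Fos and Jun proteins, is the textbook activator of the collagenase and stromelysin promoters, so its motif was searched. A match to TGAGTCA or its reverse complement TGACTCA within 250 bases before a start site was found in 4.46% of the 32851 promoter windows of RefSeq (GRCm38.p6). Of the 46 genes 32 have a window and 7 of these hold a match. All 7 are in the chromosome 9 cluster (Mmp13, Mmp12, Mmp1b, Mmp3, Mmp1a, Mmp10 and Mmp7, of 10 with a window), and 0 of the 22 genes elsewhere has one. A match is a run of letters and not a measured site. The 120 bases before the start of 5 of the genes are given 5′ to 3′ with the matches in capitals, to set genes with a match beside Mmp8 and Mmp27, which differed most between groups within the cluster. All are on the plus strand, at chr9:7272394-7272513 (Mmp13), chr9:7445702-7445821 (Mmp3), chr9:7502222-7502341 (Mmp10), chr9:7558309-7558428 (Mmp8) and chr9:7571276-7571395 (Mmp27).
Mmp13: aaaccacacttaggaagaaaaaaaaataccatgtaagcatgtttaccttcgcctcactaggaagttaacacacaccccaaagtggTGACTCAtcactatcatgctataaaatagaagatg
Mmp3: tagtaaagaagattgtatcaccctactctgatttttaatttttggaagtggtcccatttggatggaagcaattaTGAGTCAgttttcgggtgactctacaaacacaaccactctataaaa
Mmp10: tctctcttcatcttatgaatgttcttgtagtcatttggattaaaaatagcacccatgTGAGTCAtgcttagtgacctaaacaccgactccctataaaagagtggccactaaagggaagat
Mmp8: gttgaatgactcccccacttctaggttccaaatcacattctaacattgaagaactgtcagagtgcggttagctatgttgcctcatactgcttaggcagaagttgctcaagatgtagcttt
Mmp27: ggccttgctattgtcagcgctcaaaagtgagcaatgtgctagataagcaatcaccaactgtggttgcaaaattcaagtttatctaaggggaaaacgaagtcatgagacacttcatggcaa
The matches begin 35 bases before the start site in Mmp13, 46 in Mmp3 and 63 in Mmp10, while the windows of Mmp8 and Mmp27 hold none. Mmp13, Mmp3 and Mmp10, with a match, reached 3.15, 1.05 and 0.113 FPKM at their highest, and Mmp27, Mmp8 and Mmp20, without one, 8.08, 4.14 and 0.179 FPKM. Among transcripts of AP-1 subunits, the listed Fos genes shared a pattern and the Jun genes did not. Fosl1 was at 72.0, 165 and 34.3 FPKM in Ago2+/+ and at 190, 24.3 and 116 FPKM in Ago2-/-. It was highest in the 2 groups with Mmp13, Mmp8 and Mmp27, Ago2+/+ tunicamycin and Ago2-/- DMSO. Fos (4.99 and 8.59 FPKM), Fosb (1.20 and 1.76 FPKM) and Fosl2 (38.8 and 34.5 FPKM) were also highest in these groups. Jun was lowest there, at 17.7 and 15.0 FPKM against 20.4 to 38.1 FPKM elsewhere. Junb was highest in Ago2-/- DMSO (56.1 FPKM), and Jund in Ago2-/- tunicamycin (1.11 FPKM).

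Genes next to the cluster that encode no protease differed in the same groups, several of them by more. Within 2 Mb of the cluster 13 other loci reached 1 FPKM, and 9 of them were at least 2-fold higher in Ago2-/- DMSO than in Ago2+/+ DMSO, with 1 lower (Arhgap42), against 8.66% and 7.11% of all loci. Yap1, the effector of Hippo signalling, was at 35.9, 1035 and 42.4 FPKM in Ago2+/+ and at 972, 43.3 and 34.7 FPKM in Ago2-/-. Dcun1d5, a factor for cullin neddylation, was at 59.4, 935 and 63.4 FPKM and at 989, 59.5 and 58.0 FPKM in the same order. The apoptosis inhibitors Birc2 (35.3 and 33.7 FPKM against 6.89 to 16.2) and Birc3 (17.6 and 22.9 FPKM against 0.356 to 9.29) were also highest in Ago2+/+ tunicamycin and Ago2-/- DMSO. The stretch from the start of Dync2h1 (66.0 and 65.9 FPKM against 1.87 to 2.66) to the end of Cep126 (182 and 122 FPKM against 0.126 to 3.88) is 1.21 Mb long. Within it Tmem123 did not share the pattern, at 34.1, 32.5 and 55.0 FPKM in Ago2+/+ and 34.4, 53.5 and 32.2 FPKM in Ago2-/-. DNA copy number was not measured, and its part in these levels was not tested.

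**Figure D5:**
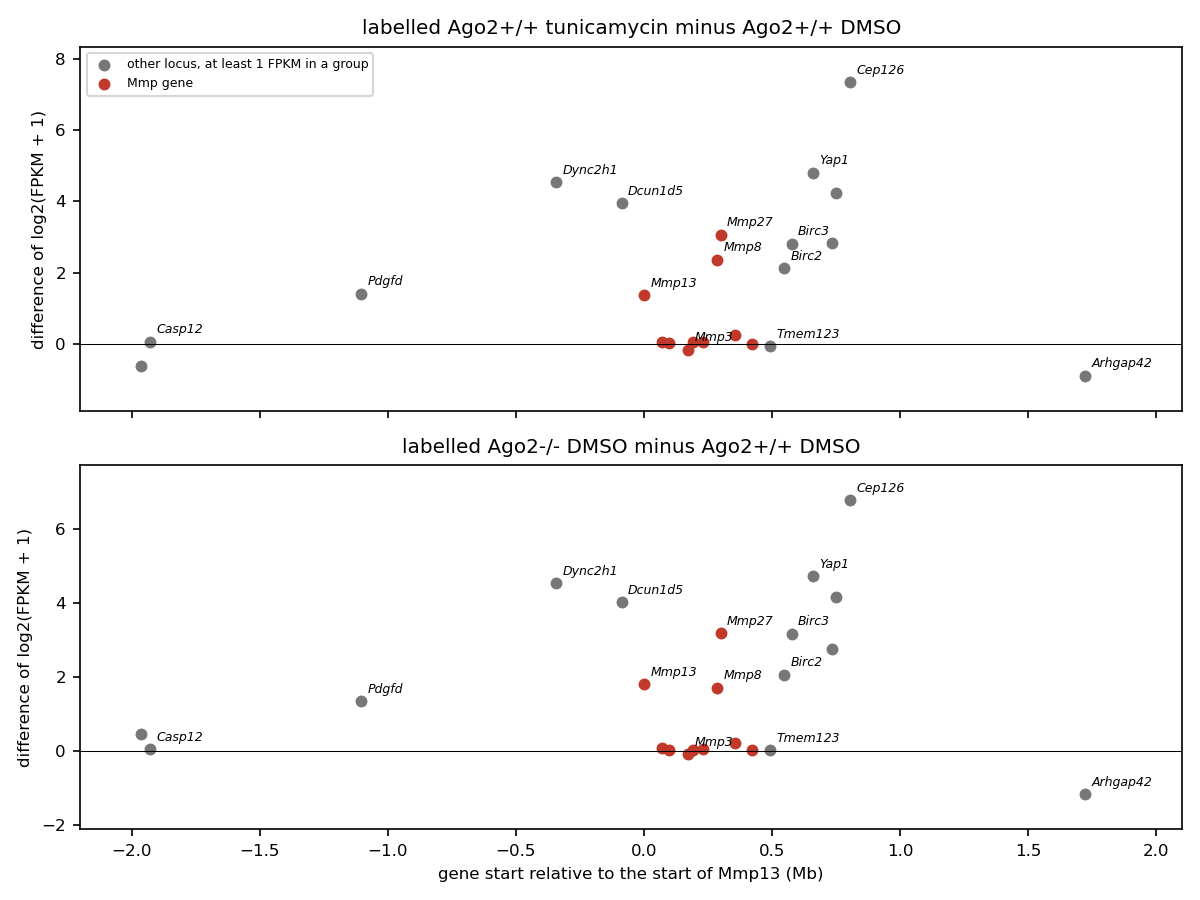
Difference of log2(FPKM + 1) (vertical) against the position of the gene start relative to that of Mmp13 in Mb (horizontal) on chromosome 9, for the 10 Mmp genes (red) and the 13 other loci at 1 FPKM or more within 2 Mb (grey), in Ago2+/+ tunicamycin (top) and Ago2-/- DMSO (bottom), each minus Ago2+/+ DMSO. Dync2h1, Dcun1d5, Yap1 and Cep126 lie between 3.95 and 7.35 on both sides of the Mmp genes, and Tmem123 lies near 0.

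The same count of neighbours was made for each gene at 1 FPKM or more. Loci within 1 Mb that were at 1 FPKM or more were compared between Ago2-/- DMSO and Ago2+/+ DMSO. Over all loci, 8.66% were 2-fold higher and 7.11% lower. Counts are given for the genes that were themselves 2-fold apart between these groups. For Timp3, which was higher in Ago2-/- DMSO by 4.79 on the log2 scale, 0 of 9 neighbours were 2-fold apart, and for Timp1 1 of 16 was higher. For Adamts1, lower by 2.75, 1 of 5 neighbours was higher and 0 were lower. With so few neighbours, the counts for Timp3, Timp1 and Adamts1 are near the shares of all loci. The single neighbour of Mmp16 was lower, as was Mmp16. For Mmp8 and Mmp27, 8 of 9 neighbours were higher, with a median of 4.03. For Mmp13, 9 of 10 were higher, with a median of 3.60.

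Genes that act with these proteases were counted by the same 2-fold rule from 7 lists. In the ADAM list (10 sheddases and relatives), the 4 most abundant were Adam9 (47.4 to 69.9 FPKM), Adam15 (23.2 to 46.5 FPKM), Adam10 (30.4 to 39.3 FPKM) and Adam17, which sheds cytokines and receptors (16.0 to 24.1 FPKM). The shares over all loci serve as background for these lists too. Under tunicamycin 2 of its 8 genes at 1 FPKM were higher and 2 lower in Ago2+/+ (8.44% and 7.02% of all loci), and 1 was higher and 1 lower in Ago2-/- (10.8% and 8.95%). Of the genes of plasminogen activation, which feeds Mmp activation, 3 of 7 were higher and 0 lower under tunicamycin in Ago2+/+, and 2 higher and 2 lower in Ago2-/-, against the same shares of all loci (8.44% and 7.02%, then 10.8% and 8.95%). Under thapsigargin the ADAM list had 1 of 7 higher and 1 lower in Ago2+/+, and 2 of 8 higher and 1 lower in Ago2-/-. The plasminogen list had 3 of 6 higher and 0 lower, then 0 of 7 higher and 2 lower. The shares of all loci under thapsigargin were 8.27% and 6.14%, then 7.19% and 8.64%.

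Substrates of the ADAMTS proteases were measured as well. Versican (Vcan) was at 5.12, 46.3 and 2.92 FPKM in Ago2+/+ and at 52.1, 2.98 and 2.47 FPKM in Ago2-/-, highest in the 2 groups where Adamts1 was lowest. Biglycan (Bgn) was at 0.667, 6.24 and 498 FPKM in Ago2+/+ and at 5.52, 469 and 1.00 FPKM in Ago2-/-. Under thapsigargin 2 of the 4 listed substrates at 1 FPKM were higher and 0 lower in Ago2+/+ (8.27% and 6.14% of all loci), and 0 of 4 higher and 2 lower in Ago2-/- (7.19% and 8.64%). Under tunicamycin 2 of 3 were higher and 0 lower in Ago2+/+ (8.44% and 7.02%). In Ago2-/-, 3 of 4 were higher and 1 lower (10.8% and 8.95%). Among regulators of Mmps, basigin (Bsg), which induces Mmps, was between 265 and 469 FPKM, and thrombospondin 1 (Thbs1) was at 19.2, 97.2 and 246 FPKM in Ago2+/+ and at 92.0, 213 and 24.3 FPKM in Ago2-/-. In that list of 12 genes, 3 of 9 were higher and 0 lower under thapsigargin in Ago2+/+, and 0 of 8 higher and 2 lower in Ago2-/-, against the same shares of all loci (8.27% and 6.14%, then 7.19% and 8.64%). Under tunicamycin 2 of 8 were higher and 0 lower in Ago2+/+, and 4 of 9 higher and 1 lower in Ago2-/-. The shares of all loci were 8.44% and 7.02%, then 10.8% and 8.95%. Of the astacins and procollagen enhancers, Bmp1, which removes the carboxy-terminal propeptide of procollagen, was between 11.5 and 31.3 FPKM, and Tll1 reached 7.69 FPKM in Ago2+/+ thapsigargin and 4.58 in Ago2-/- tunicamycin against 0.0478 or less elsewhere. In this list, 0 of 3 were higher and 1 lower under tunicamycin in Ago2+/+, and 2 of 4 higher and 1 lower in Ago2-/-. Under thapsigargin 1 of 4 was higher and 1 lower, then 0 of 3 higher and 0 lower. Of the ADAMTS-like proteins, which lack the protease domain, Adamtsl3 was at 24.1 FPKM in Ago2+/+ tunicamycin and 19.0 in Ago2-/- DMSO against 1.28 to 7.28 in the others. Here 2 of 3 were higher and 1 lower under tunicamycin in Ago2+/+, and 0 of 3 higher and 1 lower in Ago2-/-. Under thapsigargin 2 of 3 were higher and 0 lower, then 0 of 3 higher and 2 lower. Counts of both lists stand against the shares of all loci given above for each stressor. In the list of AP-1 genes and other regulators of Mmp transcription, 4 of 11 were higher and 0 lower under tunicamycin in Ago2+/+. In Ago2-/-, 0 of 12 were higher and 3 lower. These stand against 8.44% and 7.02%, then 10.8% and 8.95%, of all loci. Under thapsigargin 0 of 10 were higher and 2 lower in Ago2+/+, and 1 of 11 higher and 3 lower in Ago2-/-. The shares of all loci were 8.27% and 6.14%, then 7.19% and 8.64%.

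Over the 23 genes at 1 FPKM or more, the group with the highest level was Ago2-/- tunicamycin for 11, Ago2+/+ thapsigargin for 4, Ago2-/- DMSO and Ago2-/- thapsigargin for 3 each, Ago2+/+ tunicamycin for 2 and Ago2+/+ DMSO for 0. Among all 13032 loci at 1 FPKM or more, Ago2-/- tunicamycin was highest for 19.6% and Ago2+/+ thapsigargin for 15.4%. The share was 17.1% for Ago2-/- DMSO, 15.1% for Ago2-/- thapsigargin, 17.0% for Ago2+/+ tunicamycin and 15.8% for Ago2+/+ DMSO.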

How the data were processed

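RNA of 18 libraries was sequenced, 3 in each of 6 groups. The submitters' processing notes name FastQC 0.11.7, HISAT2 2.1.0 (alignment), StringTie 1.3.4d (assembly), Cuffdiff 2.2.1 (quantification) and the build GRCm38. The authors deposited 1 FPKM per gene and group, pooled over its libraries and normalised for transcript length and mapped fragments. The table of 772485 rows repeats each of 51499 loci in 15 pairs of groups, and 0 group values differed between rows. Its other columns hold the authors' own fold changes, test statistics, p-values and q-values for each pair, and these were not used. Low values of genes with a single transcript did not fall on steps of whole reads in most cases (at the best step, 24.7% to 37.8% of values lay within 0.1 of a whole number, and 20% would by even spread), so the depth is unknown and the precision rests on the pooled estimate.

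Libraries were grouped by title. The groups labelled Ago2+/+ are titled DCR1, without a reason in the sources used here, and the labels of 4 libraries conflict on genotype. Differences were taken between log2(FPKM + 1) values, with 2-fold as the threshold and at least 1 FPKM in either group, and shares over all loci serve as background. Genes at 1 FPKM or more in a group are named with their values. Of each related list, genes named are among its 4 most abundant, except Jun, Jund, Fos, Fosb and Fosl2, named after their values were seen. Members and lists were chosen with earlier results of these data known. The neighbours of the chromosome 9 cluster and the 5 promoters shown were chosen after their values were seen. Gene positions are from GENCODE M21 (GRCm38) and promoters from RefSeq (GRCm38.p6). Alternatives were a pseudocount of 0.1, no filter, a minimum of 5 FPKM, a 4-fold threshold, centring on the median and loci with a single symbol. The counting was tested on simulated data. Python 3 with pandas, numpy and matplotlib was used.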

Additional observations from a re-analysis of the deposited data

Results flagged for a closer look

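For 7 genes a stressor went with a level at least 2-fold higher than DMSO in one labelled genotype and at least 2-fold lower in the other, on the log2(FPKM + 1) scale. The values are the difference in the groups labelled Ago2-/- minus that in the groups labelled Ago2+/+. Under tunicamycin it was 5.83 for Adamts1, 4.87 for Mmp16, 2.64 for Mmp19, -3.40 for Mmp13, -4.07 for Mmp8 and -6.24 for Mmp27. Under thapsigargin it was -9.67 for Timp3. The differences were not tested, since each group has 1 pooled value. The same rule took 6.79% of 12861 loci under tunicamycin and 4.72% of 12833 under thapsigargin, against 6 of 22 and 1 of 23 of the genes described here. The 1 of 23 is near the share of all loci. Ago2+/+ tunicamycin and Ago2-/- DMSO, which were alike, are the treated group in one genotype label and the DMSO group in the other. A gene particular to both therefore takes opposite signs by the make-up of the comparisons. The same holds under thapsigargin for Ago2-/- thapsigargin and Ago2+/+ DMSO.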

How the results depend on the processing

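No paired analysis was possible because the table gives 1 pooled value per group, and for the same reason no replicate could be left out. Of 50 recomputed counts of genes 2-fold apart, 39 stayed within 1.5 times the value given. A 4-fold threshold lowered the counts of the 7 comparisons. They became 5 of 14 and 5 of 19 for tunicamycin and thapsigargin in Ago2+/+, and 9 of 21 and 4 of 16 in Ago2-/-. For the genotype labels under DMSO, tunicamycin and thapsigargin they were 4 of 14, 9 of 22 and 5 of 20. Between 4.72% and 5.79% of all loci were apart at this threshold. A minimum of 5 FPKM gave 5 of 8 genes for tunicamycin in Ago2+/+ (12.9% of loci). It gave 4 of 8 for the genotype labels under DMSO (13.3% of loci). A pseudocount of 0.1 FPKM was tried on the other pairs after seeing the data. It gave 1 gene in place of 0 for Ago2-/- thapsigargin against Ago2+/+ DMSO (4.11% of loci). The same held for Ago2-/- DMSO against Ago2+/+ tunicamycin (1.83% of loci). It also enlarged 44 of 71 called log2 differences by over 1.5 times, for example, under tunicamycin in Ago2+/+, Timp3 from 4.97 to 7.95, Mmp27 from 3.06 to 6.22 and Mmp8 from 2.36 to 5.41. No called difference of a named gene changed sign under the alternatives run. Centring moved all differences by 0.026 or less on the log2 scale.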
